A study of Mus musculus with 6 samples.

Results

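Transcripts of 10 genes that mark fat cells (adipocytes) were read in the tibialis anterior, the muscle along the front of the shin, of adult mice. The genes are Adipoq, Lep, Retn, Cfd, Plin1, Cidec, Plin4, Fabp4, Scd1 and Pparg. They were chosen by symbol from textbook fat cell biology, with earlier results of these data known. They are 10 of the 54393 genes in the deposited table. All 10 reached the mean of at least 10 normalized counts asked of a gene to be tested, as did 16031 genes in all. Wild-type muscles (WT, replicates 1, 3 and 4, whose titles begin with C57) were compared with muscles of mice lacking Dock3 (Dock3 KO, replicates 1, 2 and 3), with n = 3 muscles in each genotype. Dock3 encodes an exchange factor that activates the small GTPase Rac. Strain, sex, the Dock3 allele and whether a mouse gave more than 1 muscle are not given in the sources used here, so p-values measure the spread between these muscles. Ribosomal RNA was depleted from total RNA before stranded libraries were made and sequenced as read pairs.

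A skeletal muscle holds fat cells between its fibres and in the connective tissue around it, and the amount taken along at dissection can vary. Mature fat cells store triglyceride in 1 large droplet coated by perilipins, and they release adipokines, hormones such as adiponectin and leptin, into the blood. The nuclear receptor PPARγ drives the differentiation of fat cells from progenitors and switches on much of their lipid storage programme. Leptin transcription and secretion are known to rise with the fat content of the cells. Some of the 10 genes are also active outside fat cells. Among them are Plin4 in muscle fibres, Fabp4 in the endothelium of small vessels, Fabp4 and Pparg in macrophages, and Scd1 in many tissues. In whole muscle, fewer cells of a type and less RNA per cell cannot be told apart.

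The estimated depth was 21700000 to 32500000 reads per library. Dock3 itself lay between 118.1 and 169.3 normalized counts in the WT muscles. Dock3 KO replicates 3 and 2 held 1.54 and 1.78, and Dock3 KO replicate 1 held 22.4. Dock3 KO replicates 1 and 2 stood apart from the other libraries: Gm42418 and Lars2, genes known to collect reads of ribosomal RNA, took 17.9% and 20.3% of their normalized counts, against 3.00% to 3.64% elsewhere. Summed muscle fibre markers were between 1272885 and 1445343 normalized counts in the 6 muscles, so the labelled tissue matched its markers. The part of this in the results was not tested, and values without those libraries are given where they move.

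Promoter windows, the 250 bases before a RefSeq transcription start on GRCm38.p6, were found for 8 of the 10 genes, with none for Fabp4 and Scd1. The window of Adipoq (chr16:23146286-23146535, plus strand) is shown because Adipoq is the fat cell marker against which the others are read below. The window of Lep (chr6:29059971-29060220, plus strand) is shown because, of the 9 other genes, Lep had the largest genotype difference in its ratio to Adipoq. Capitals mark CCAAT on either strand in Adipoq and TTGCNNAA on either strand in Lep, the latter being letters of the kind that C/EBP factors bind.
Adipoq: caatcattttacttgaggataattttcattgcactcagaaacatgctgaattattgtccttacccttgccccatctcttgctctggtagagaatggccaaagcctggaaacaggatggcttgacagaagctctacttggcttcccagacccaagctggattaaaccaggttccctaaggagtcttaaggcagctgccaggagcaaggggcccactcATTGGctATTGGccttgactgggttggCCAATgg
Lep: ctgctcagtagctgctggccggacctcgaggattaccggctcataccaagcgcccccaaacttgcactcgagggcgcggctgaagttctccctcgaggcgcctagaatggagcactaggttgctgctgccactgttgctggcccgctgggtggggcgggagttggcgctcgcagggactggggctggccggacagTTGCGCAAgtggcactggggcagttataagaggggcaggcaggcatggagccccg
Matches to CCAAT began 34, 27 and 7 bases before the start of Adipoq. The match to TTGCNNAA, in the form TTGCGCAA, began 55 bases before the start of Lep. CCAAT was present in 33.8% of the 32851 windows of the RefSeq table and TTGCNNAA in 9.56%. Among the genes described here, CCAAT was also present in windows of Pparg and Plin4, and TTGCNNAA in windows of Cidec, Pparg and Plin1. AGGTCA, a half-site of nuclear receptors, was present in 14% of all windows and, among the genes described here, in windows of Pparg. The direct repeat of that half-site with 1 base between, of the kind PPARγ binds, was present in 0.0335% of all windows and in none of the 11 windows of these genes. These are matches of letters and not measured sites.

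Most of the fat cell genes varied more between muscles of the same genotype than the median gene did. The median coefficient of variation of the 10 genes was 77.3% over the WT muscles and 36.6% over the Dock3 KO muscles, against medians of 16.8% and 18.1% over all genes tested. Plin4 in WT (15.9%) and Fabp4 in Dock3 KO (10.5%) were below those medians. WT replicate 3 was the highest WT muscle for 8 of the 10 genes, and 29.8% of all genes tested were highest of the WT muscles there. WT replicate 4 was the lowest of all 6 muscles for 6 of the 10 genes, WT replicate 1 for 3 and WT replicate 3 for 1, and no Dock3 KO muscle was the lowest for any. Of all genes tested, 14.7% were lowest in WT replicate 4, 19.1% in WT replicate 1, 13.02% in WT replicate 3 and 53.2% in a Dock3 KO muscle. None of the 10 genes passed an adjusted p of 0.05 between genotypes (limma with Benjamini-Hochberg adjustment), a call made for 1.03% of all genes tested, and for 0.443% as higher in Dock3 KO. Lep and Retn, 2 of the 10, had an unadjusted p under 0.05, as did 10.5% of all genes tested, and both were higher in Dock3 KO, as were 4.82%. In none of the 10 did the genotypes fail to overlap, which they did in 16.2% of all genes tested (7.6% higher and 8.65% lower in Dock3 KO).

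**Figure D1:**
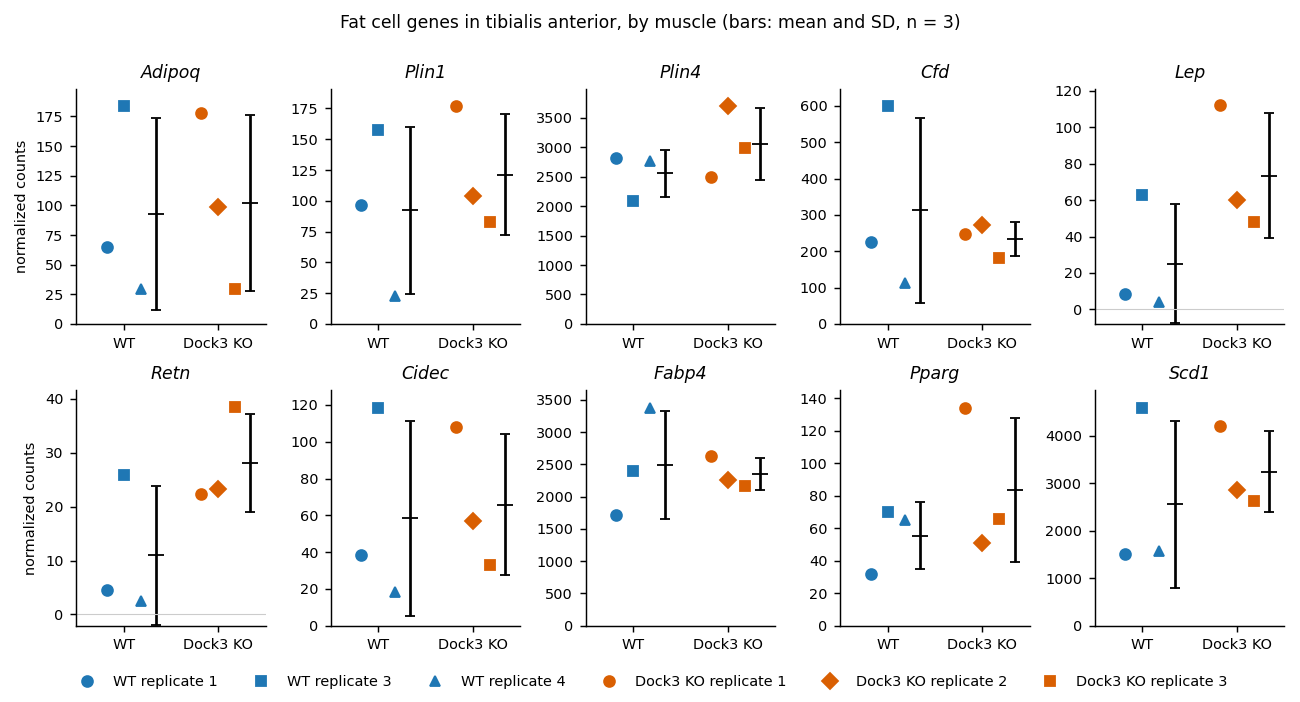
Normalized counts of the 10 fat cell genes in each muscle, with 1 panel and 1 linear axis per gene. Symbols are single muscles, coloured by genotype, and the bars give the mean and SD of n = 3. WT replicate 3 is the highest WT muscle in every panel except Plin4 and Fabp4, and the genotypes overlap in every panel.

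Compared per kilobase of the longest coding transcript, the mean over 6 muscles was highest for Fabp4 at 2706 normalized counts per kilobase. Scd1 followed at 600.4, Plin4 at 487.5 and Cfd at 296.6. Adipoq stood at 75.3, Plin1 at 37.9, Cidec at 36.1 and Pparg at 32.7, and the 2 hormones Retn and Lep were lowest at 17.1 and 15.1. Of the genes named above as also active outside fat cells, Fabp4, Scd1 and Plin4 thus had the highest levels per length, while Pparg was among the lower ones. The adipokine transcripts Lep and Retn had the lowest.

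Among the secreted products, Adipoq encodes adiponectin, an abundant hormone of mature fat cells (ENSMUSG00000022878, chromosome 16, 23146536 to 23158028, plus strand; here and below GRCm38 with GENCODE M21). Normalized counts were 64.5, 183.8 and 29.5 across WT replicates 1, 3 and 4 and 177.9, 98.4 and 29.8 across the 3 Dock3 KO replicates in order. Each genotype thus held 1 muscle with much and 1 with little Adipoq, and the ranges overlapped almost fully. The log2 difference, Dock3 KO minus WT, was 0.19 (SE 0.71, adjusted p = 0.965, limma with Benjamini-Hochberg adjustment). Its sign turned when the libraries were rescaled to the same total (-0.08), where the median of all genes was -0.28. With Gm42418 and Lars2 left out of that total, Adipoq stood at 0.09.

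Lep encodes leptin, the fat cell hormone that reports energy stores to the brain (ENSMUSG00000059201, chromosome 6, 29060220 to 29073877, plus strand). The WT muscles (replicates 1, 3 and 4) read 8.31, 62.8 and 4.18 normalized counts and the Dock3 KO muscles (replicates 1 to 3) 112.3, 60.0 and 47.9. WT replicates 1 and 4 were far below every Dock3 KO muscle, while WT replicate 3 lay among them. Between genotypes the log2 difference was 2.26 (SE 0.80, 95% interval 0.47 to 4.05), with an unadjusted p of 0.0182 and an adjusted p of 0.324 by limma. The exact two-sided permutation test of the 3 against 3 muscles gave p = 0.3, where the smallest p the design allows is 0.1. The low WT values rest on few reads, approximately 9.38 in replicate 1 and 5.07 in replicate 4.

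Retn encodes resistin, which mouse fat cells secrete (ENSMUSG00000012705, chromosome 8, 3655770 to 3660110, plus strand). WT replicates 1, 3 and 4 held 4.55, 25.9 and 2.48 normalized counts of it, and Dock3 KO replicates 1, 2 and 3 held 22.3, 23.3 and 38.5. As for Lep, WT replicates 1 and 4 were the low muscles, and WT replicate 3 was above 2 of the 3 Dock3 KO muscles. Its log2 difference was 1.81 (SE 0.74), with a 95% interval of 0.16 to 3.46. The unadjusted p was 0.0350 and the adjusted p 0.419 by limma, and the exact permutation p was 0.3. A pseudocount of 10 in place of 1 lowered the log2 difference to 1.0 for Retn and to 1.57 for Lep. WT replicates 1 and 4 held approximately 5.13 and 3.01 reads of Retn.

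Cfd encodes adipsin, the complement factor D protease that fat cells release (ENSMUSG00000061780, chromosome 10, 79890853 to 79892655, plus strand). Normalized counts were 226.3, 599.5 and 113.5 across WT replicates 1, 3 and 4 and 247.0, 273.0 and 181.7 across the 3 Dock3 KO replicates in order. WT replicate 3 was far above every Dock3 KO muscle, and all 3 Dock3 KO muscles lay within the WT range. The log2 difference was -0.11 (SE 0.48, adjusted p = 0.970 by limma).

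Among the droplet proteins, Plin1 encodes perilipin 1, which coats the fat cell droplet and holds back lipases (ENSMUSG00000030546, chromosome 7, 79720218 to 79732903, minus strand). The WT muscles (replicates 1, 3 and 4) read 96.7, 157.5 and 22.4 normalized counts and the Dock3 KO muscles (replicates 1 to 3) 177.0, 104.2 and 82.7. WT replicate 4 was well below the other 5 muscles, and Dock3 KO replicate 1 was the highest. Between genotypes the log2 difference was 0.70 (SE 0.60, adjusted p = 0.764 by limma). A stretch of its transcript matches 4 short genes at 95% identity or more, Gm23638, Gm23681, Gm24303 and Gm27857, so reads there may be shared.

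Cidec encodes a protein that fuses lipid droplets into a single large one (ENSMUSG00000030278, chromosome 6, 113424634 to 113435760, minus strand). WT replicates 1, 3 and 4 held 38.3, 118.5 and 18.3 normalized counts of it, and Dock3 KO replicates 1, 2 and 3 held 107.9, 56.7 and 33.0. The 6 muscles stood in exactly the order they took for Adipoq. Its log2 difference was 0.41 (SE 0.63, adjusted p = 0.895 by limma).

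Plin4 encodes perilipin 4, a droplet protein of fat cells and muscle fibres (ENSMUSG00000002831, chromosome 17, 56100591 to 56109803, minus strand). Normalized counts were 2818, 2086 and 2759 across WT replicates 1, 3 and 4 and 2486, 3699 and 2991 across the 3 Dock3 KO replicates in order. Here WT replicate 3 was the lowest muscle of all, the opposite of its place for most of the other genes, and the coefficient of variation over the WT muscles was 15.9%, the smallest of the 10. The log2 difference was 0.25 (SE 0.18, adjusted p = 0.697 by limma), and -0.02 after rescaling to the same total. With Gm42418 and Lars2 left out of that total it was 0.15. Plin4 overlaps Hdgfl2 on the other strand, and whether counting used strand is not given in the sources used here.

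Among the genes of fatty acid handling, Fabp4 encodes a fatty acid carrier of fat cells, capillary endothelium and macrophages (ENSMUSG00000062515, chromosome 3, 10204088 to 10208576, minus strand). The WT muscles (replicates 1, 3 and 4) read 1717, 2393 and 3379 normalized counts and the Dock3 KO muscles (replicates 1 to 3) 2633, 2264 and 2162. WT replicate 4, the lowest muscle for Adipoq, was the highest for Fabp4, and all 3 Dock3 KO muscles lay within the WT range. Between genotypes the log2 difference was -0.04 (SE 0.22, adjusted p = 0.979 by limma).

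Scd1 encodes stearoyl-CoA desaturase 1, which makes monounsaturated fatty acids (ENSMUSG00000037071, chromosome 19, 44394455 to 44407879, minus strand). WT replicates 1, 3 and 4 held 1510, 4592 and 1583 normalized counts of it, and Dock3 KO replicates 1, 2 and 3 held 4217, 2868 and 2636. WT replicates 1 and 4 were below every Dock3 KO muscle and WT replicate 3 above them all. Its log2 difference was 0.51 (SE 0.38, adjusted p = 0.719 by limma). Its closest relatives Scd3 and Scd2 share 90.4% and 86.4% of aligned bases with it, below the 95% taken as a near-identical copy.

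Pparg encodes PPARγ itself (ENSMUSG00000000440, chromosome 6, 115360951 to 115490399, plus strand). Normalized counts were 31.7, 69.7 and 64.8 across WT replicates 1, 3 and 4 and 134.1, 50.7 and 65.4 across the 3 Dock3 KO replicates in order. Dock3 KO replicate 1 stood above the other 5 muscles, and the remaining Dock3 KO values lay within the WT range. The log2 difference was 0.54 (SE 0.42, adjusted p = 0.742 by limma). Pparg overlaps Gm44079 on the other strand.

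Over the 10 genes, 8 log2 differences were above 0, against 49% of all genes tested, and their median was 0.46 against -0.01 for all genes. With the libraries rescaled to the same total, 6 of 10 were above 0 and the median was 0.19, where the median of all genes was -0.28. The values come from the same 6 muscles and the genes share their spread, so the count does not stand for 10 separate observations.

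WT replicate 3 stood out among the WT muscles for most of the 10 genes. It was 10.1 times the mean of the other WT muscles for Lep, 7.36 times for Retn, 4.18 times for Cidec, 3.91 times for Adipoq and 3.53 times for Cfd. For Scd1, Plin1 and Pparg the ratio was 2.97, 2.64 and 1.45, and for Fabp4 and Plin4 it was below 1, at 0.939 and 0.748. The excess was thus largest for Lep and Retn among the 10 genes and was absent for Fabp4 and Plin4. Among all genes tested, 0.118% had at least the log2 excess of Lep and 0.543% at least that of Adipoq.

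WT replicate 3 was singled out for its high values of these genes, so leaving it out raises most of their differences by construction. The values without it are therefore no separate support for a genotype difference. Without WT replicate 3, the log2 difference of Lep was 3.33 and passed the threshold (SE 0.53, adjusted p = 0.0265, limma with Benjamini-Hochberg adjustment). So 1 of the 10 genes was called, against 0.698% of all genes tested. Retn then stood at 2.68 (adjusted p = 0.158 by limma) and Scd1 at 1.04 (adjusted p = 0.0890 by limma). Lep, Retn and Scd1 were higher in every Dock3 KO muscle than in both remaining WT muscles, as were 11.6% of all genes tested, out of 24.3% without overlap in either direction. The median log2 difference of the 10 genes rose from 0.46 to 0.95, and 9 of 10 were above 0. In the other direction, without WT replicate 4 the log2 difference was 1.52 for Lep (adjusted p = 0.609 by limma), 1.21 for Retn, 0.27 for Scd1 and -0.43 for Adipoq. Without WT replicate 1, Scd1 stood at 0.23. Dropping Dock3 KO replicates 1 and 2 together left 1.75 for Lep (adjusted p = 0.803 by limma) and -1.22 for Adipoq.

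**Figure D2:**
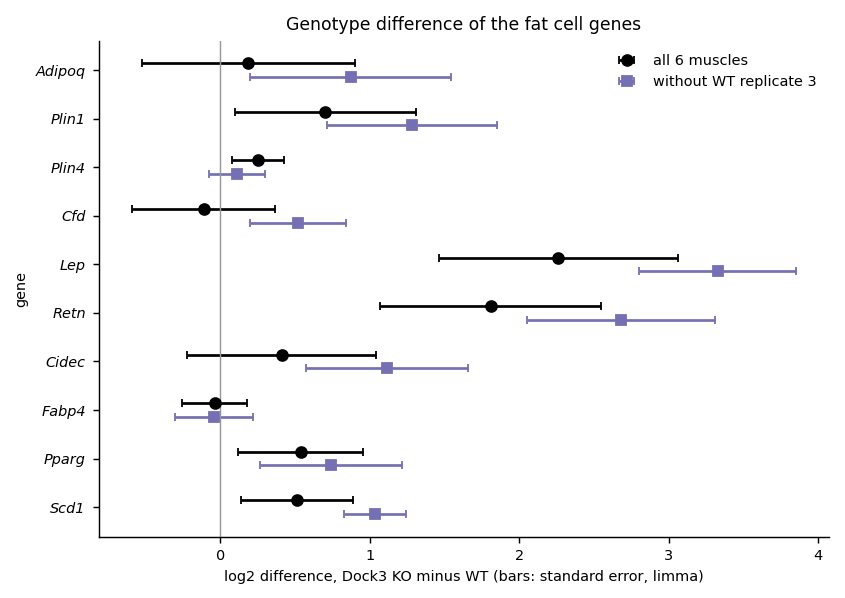
Log2 difference of each fat cell gene, Dock3 KO minus WT, on the log2(normalized count + 1) scale with all 6 muscles (black circles) and without WT replicate 3 (purple squares), with bars for the limma standard error. Lep moves from 2.26 to 3.33 and Cfd from -0.11 to 0.52, while Plin4 and Fabp4 move least. WT replicate 3 was singled out for its high values of most of these genes. Without WT replicate 4 instead, which is not drawn, Lep stood at 1.52.

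Adipoq was used to ask which of the genes moved together from muscle to muscle, with Pearson's r over the 6 muscles on the log2 scale and 9 relations in the family. Cidec followed Adipoq most closely (r = 0.958, exact permutation p = 0.00694, adjusted p = 0.0313), and Spearman's rho was 1 (exact p = 0.00278). Plin1 came next among those past the threshold (r = 0.822, exact permutation p = 0.00278, adjusted p = 0.0250, rho = 0.943 with exact p = 0.0167). These 2 of 9 relations passed an adjusted p of 0.05. Neither did after rescaling to the same total or after quantile normalization. With single muscles left out, Plin1 passed in none of the 6 settings and Cidec in 2, without Dock3 KO replicate 1 and without Dock3 KO replicate 2, although r stayed at 0.770 or more for Plin1 and at 0.941 or more for Cidec. Without the 2 muscles farthest from the median of Adipoq, WT replicate 4 and Dock3 KO replicate 3, r was 0.998 for Cidec and 0.953 for Plin1. Both relations held a high r after each genotype's mean was taken out (r = 0.966 and 0.852).

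Cfd had nearly the same r as Plin1 but missed the threshold (r = 0.821, exact permutation p = 0.0208, adjusted p = 0.0625, rho = 0.943), and its r fell to 0.609 without those 2 muscles. For Scd1, r was 0.771 (exact permutation p = 0.0847, adjusted p = 0.191, rho = 0.829). For Lep it was 0.673 (exact permutation p = 0.147, adjusted p = 0.265, rho = 0.886), and 0.858 once each genotype's mean was taken out. Retn and Pparg were further off, with r = 0.410 (exact permutation p = 0.419, adjusted p = 0.525, rho = 0.371) and r = 0.381 (exact permutation p = 0.467, adjusted p = 0.525, rho = 0.486). Dock3 KO replicate 3, near the bottom for Adipoq, was the highest muscle for Retn. Without the 2 farthest muscles r was 0.980 for Scd1, 0.869 for Lep, 0.831 for Retn and 0.884 for Pparg.

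Fabp4 and Plin4 did not follow Adipoq. For Fabp4, r was -0.12 (exact permutation p = 0.810, adjusted p = 0.810, rho = 0.0286), although it was 0.917 over the 4 muscles left without the farthest 2. For Plin4, r was -0.43 (exact permutation p = 0.425, adjusted p = 0.525, rho = -0.49), and -0.64 without the farthest 2. Beside Fabp4, normalized counts summed over 9 endothelial markers were 6662, 7098 and 8812 in WT replicates 1, 3 and 4 and 7854, 6422 and 7503 in Dock3 KO replicates 1, 2 and 3. WT replicate 4 was the highest muscle for both and their r was 0.825 (exact permutation p = 0.05, adjusted p = 0.15 over 3 such relations, rho = 0.714 with exact p = 0.136). That r fell to 0.473 without the 2 muscles farthest from the median of Fabp4, here WT replicates 1 and 4. The other relations in that family were Fabp4 with summed macrophage markers (r = 0.258, exact permutation p = 0.636, adjusted p = 0.636, rho = 0.371) and Plin4 with summed muscle fibre markers (r = 0.383, exact permutation p = 0.479, adjusted p = 0.636, rho = 0.0286). Without WT replicates 1 and 4, r of Fabp4 with the macrophage markers was 0.835. Without the 2 muscles farthest from the median of Plin4, WT replicate 3 and Dock3 KO replicate 2, its r with the muscle fibre markers was -0.898.

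Across all 45 pairs of the 10 genes, r ranged from -0.53 to 0.958, with a median of 0.554, and 30 pairs were above 0. All genes tested had a median r with Adipoq of -0.01, and 321 of 16030 exceeded 0.8. At least the r of Cidec was reached by 0.106% of genes, and at least that of Plin1 by 1.61%. Among 12 other fat cell markers that were tested, the median r with Adipoq was 0.553, and Trarg1 and Sncg exceeded 0.8 (r = 0.886 and 0.872). Among 10 lipid droplet genes the median was 0.09, and only Hilpda of these exceeded 0.8.

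**Figure D3:**
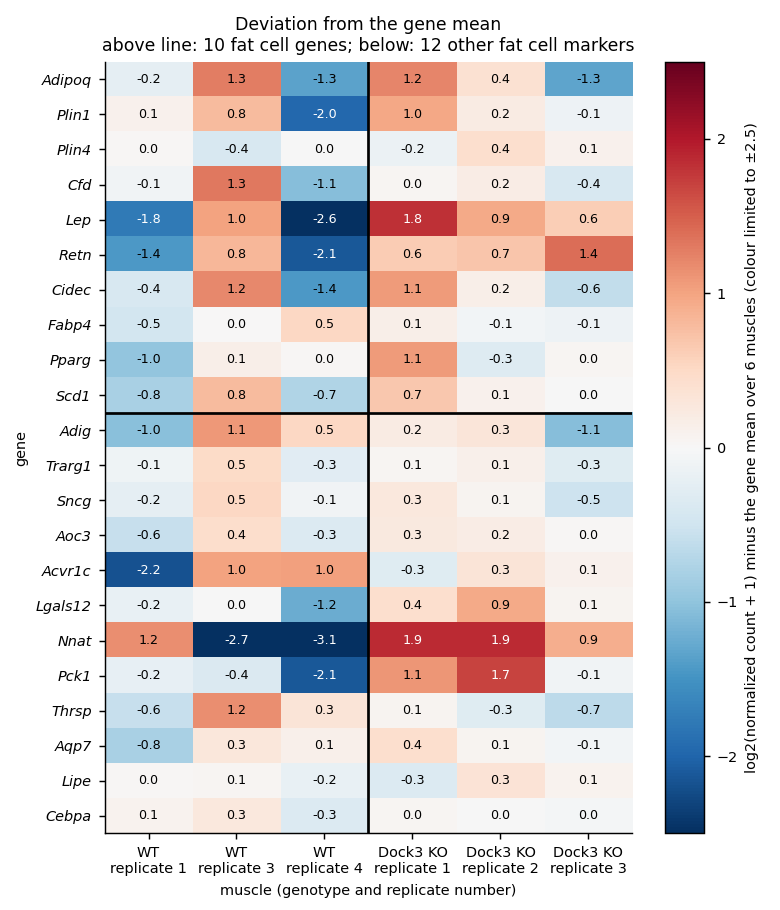
Log2(normalized count + 1) of each gene minus its mean over the 6 muscles, for the 10 fat cell genes (above the line) and 12 other fat cell markers (below), with muscles as columns. WT replicate 3 is red and WT replicate 4 blue for Adipoq, Plin1, Cfd, Lep, Retn, Cidec and Scd1, a pattern that Fabp4 and Plin4 lack.

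The 5 genes outside the lists whose levels were most like the mean standardised profile of the 10 genes over the 6 muscles were Trim26 (r = 0.985), Gm45517 (r = 0.980), Il1r1 (r = 0.980), Zfp26 (r = 0.975) and Gm21596 (r = 0.974). Trim26, a ubiquitin ligase, lay between 295.2 and 345.7 normalized counts, and Il1r1, the receptor of interleukin 1, between 217.8 and 320.6, while Gm45517 ran from 9.18 to 21.4. None of these 5 passed the genotype threshold (adjusted p of 0.736 to 0.930 by limma). Of the 10 genes, Scd1 and Lep lay nearest the shared profile (r = 0.975 and 0.959).

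Lep was then read relative to the other fat cell genes within each muscle, a comparison chosen after the values were seen. The ratio of Lep to Adipoq was 0.129, 0.341 and 0.142 in WT replicates 1, 3 and 4 and 0.632, 0.609 and 1.61 in Dock3 KO replicates 1, 2 and 3. Every Dock3 KO muscle was above every WT muscle, including WT replicate 3, which is rich in both transcripts. The mean log2 ratio differed by 2.21, or 4.63-fold, with an exact two-sided permutation p of 0.1, the smallest that 3 against 3 muscles can give. Among all other genes tested, 0.318% had a ratio to Adipoq that was higher in every Dock3 KO muscle. That share also depends on the spread of Adipoq itself, 6.23-fold over the WT muscles and 5.97-fold over the Dock3 KO muscles. It therefore does not measure how unusual Lep is. Leaving out single muscles gave log2 ratios between 1.75 and 2.66.

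The same order held for Lep over Plin1, Cidec, Cfd and Scd1, so for 5 of the 9 possible partners in all. A ratio higher in every Dock3 KO muscle was found for 0.262% of all genes over Plin1, 0.306% over Cidec, 1.22% over Cfd and 0.524% over Scd1. As with Adipoq, these shares depend on the spread of the partner and do not measure how unusual Lep is. The 5 ratios share Lep as numerator and have partners that vary together, so they restate 1 difference. Lep over Plin1 ran from 0.0859 to 0.398 in WT and from 0.576 to 0.635 in Dock3 KO. Lep over Cidec ran from 0.217 to 0.530 in WT and from 1.04 to 1.45 in Dock3 KO. Lep over Retn did not separate the genotypes (1.68 to 2.43 in WT and 1.24 to 5.04 in Dock3 KO), nor did Lep over Fabp4, Plin4 or Pparg. Retn over Adipoq overlapped between genotypes (0.0705, 0.141 and 0.0841 against 0.125, 0.237 and 1.29), while Retn over Cfd did not (at most 0.0432 in WT and at least 0.0853 in Dock3 KO). Cidec over Adipoq was nearly constant, between 0.576 and 0.645 in 5 muscles, and 1.11 in Dock3 KO replicate 3.

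**Figure D4:**
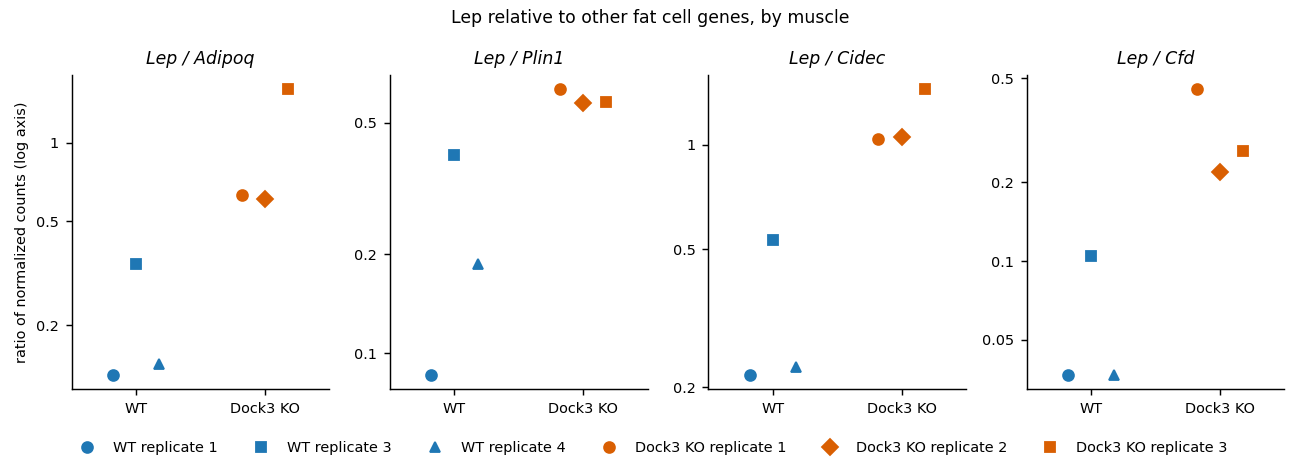
Ratio of Lep to Adipoq, Plin1, Cidec and Cfd in each muscle, on log axes, with symbols for single muscles coloured by genotype. In each panel the 3 Dock3 KO muscles lie above all 3 WT muscles, and WT replicate 3 is the highest WT muscle.

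Other genes of fat and lipid biology were read from lists. Of 12 other fat cell markers tested, none passed the threshold, and the median log2 difference was 0.08. By limma, 10.5% of all genes tested had an unadjusted p under 0.05, and 4.82% had it as higher in Dock3 KO. So did 2 of the 12 markers, both higher. Those were Nnat, the imprinted neuronatin gene, with normalized counts of 50.7, 2.51 and 1.72 in the WT muscles (replicates 1, 3 and 4) and 82.3, 82.3 and 41.9 in the Dock3 KO muscles (log2 difference 3.08, adjusted p = 0.251 by limma), and Pck1, which feeds glycerol synthesis, at 28.0, 24.9 and 6.70 against 70.6, 106.2 and 30.2 (1.79, adjusted p = 0.293 by limma). For Nnat the genotypes overlapped, and for Pck1 every Dock3 KO muscle was higher, as for 7.6% of all genes tested. Neither had the peak in WT replicate 3 that marked Adipoq.

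Among 10 lipid droplet genes tested, Plin5 rose and was the only gene of any of the 17 other lists past the threshold. Those lists hold 143 genes, tested or not, and 1.03% of all genes tested passed it. It encodes perilipin 5, which ties droplets to mitochondria in muscle and other oxidative tissues. The WT muscles (replicates 1, 3 and 4) read 125.3, 110.6 and 116.5 normalized counts and the Dock3 KO muscles (replicates 1 to 3) 277.0, 262.4 and 286.5. The genotypes were far apart and each was tight, and WT replicate 3 did not stand out. Between genotypes the log2 difference was 1.22 (SE 0.17, adjusted p = 0.00662, limma with Benjamini-Hochberg adjustment). It stayed between 0.95 and 1.28 in 19 alternative settings and passed the threshold in 15 of them. It missed after rescaling to the same total (0.95, adjusted p = 0.0900 by limma), with log2 Gm42418 as a covariate (1.28, adjusted p = 0.164 by limma), with the replicate number as a block (1.25, adjusted p = 0.0895 by limma) and without Dock3 KO replicates 1 and 2 (1.28, adjusted p = 0.207 by limma).

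No other list held a gene past the threshold. Of 9 lipolysis genes, 1 had an unadjusted p under 0.05 by limma, as did 10.5% of all genes tested. This was Pnpla3, a lipid droplet acyl hydrolase. It was at 12.5, 25.2 and 25.7 normalized counts in the WT muscles and at 56.3, 61.3 and 63.2 in the Dock3 KO muscles (log2 difference 1.53, adjusted p = 0.116 by limma). Pnpla2, the lipase that starts triglyceride breakdown, stood at -0.13 (adjusted p = 0.817 by limma). Of 15 lipogenesis genes, 5 were above 0 with a median of -0.19, and Scd2, a desaturase related to Scd1, stood at -0.73 (adjusted p = 0.292 by limma). Of 15 adipogenic regulators, Srebf1, which switches on lipid synthesis, was at 1354, 1587 and 1256 in the WT muscles and at 979.9, 858.6 and 1078 in the Dock3 KO muscles (-0.52, adjusted p = 0.182 by limma), while Cebpb stood at 0.53 (adjusted p = 0.557 by limma).

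Of 10 fatty acid entry genes, 7 were above 0 with a median of 0.19. Fabp3, the fatty acid carrier of muscle fibres, was at 3207, 2633 and 3547 normalized counts in the WT muscles and at 5737, 4596 and 4127 in the Dock3 KO muscles (log2 difference 0.62, adjusted p = 0.152 by limma). Angptl4, an inhibitor of lipoprotein lipase, was at 25.6, 10.5 and 2.87 against 46.0, 107.9 and 28.3 (2.33, adjusted p = 0.246 by limma). For both genes every Dock3 KO muscle was above every WT muscle, which held for 7.6% of all genes tested. The 5 adipokine receptor genes had a median of 0.03, with Adipor1 at 0.17 and Cdh13 at -0.38 (adjusted p = 0.754 and 0.445 by limma). The 5 genes of the alternative complement pathway, in which factor D acts, had a median of -0.32, with C3 at -0.32 and C3ar1 at -0.37 (adjusted p = 0.538 and 0.632 by limma).

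**Figure D5:**
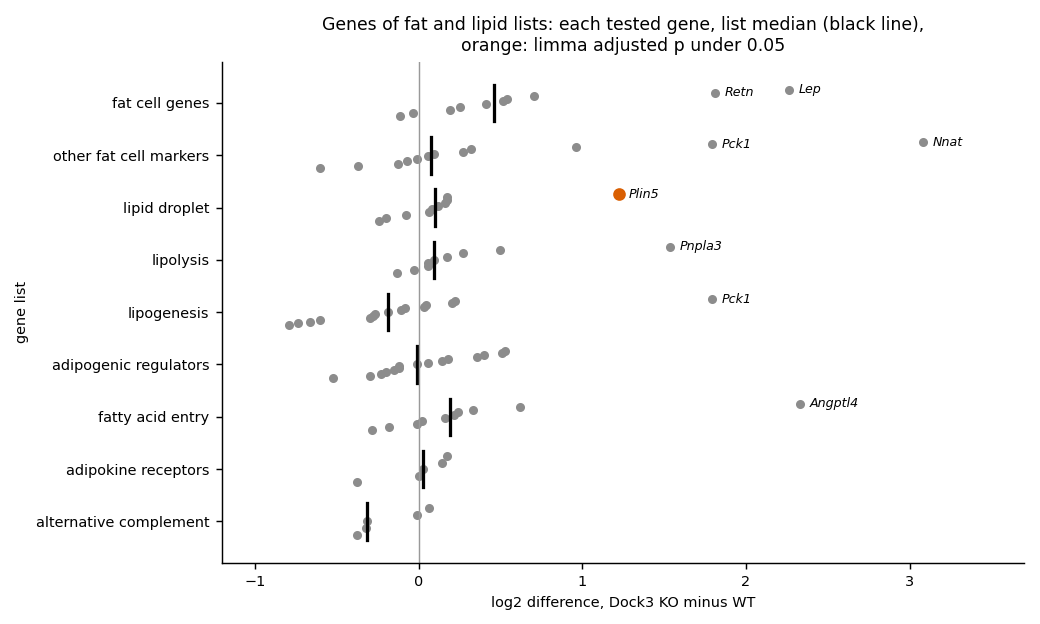
Log2 difference, Dock3 KO minus WT, of each tested gene of 9 lists of fat and lipid genes, with black lines for the list medians and orange for an adjusted p under 0.05 by limma. Plin5 at 1.22 is the single orange point, and Lep, Retn, Nnat, Pck1, Pnpla3 and Angptl4 lie further right than most genes without passing the threshold.

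Markers of other cells that a dissected muscle can hold were read beside these values, and none of them passed the threshold. Ucp1, the defining gene of brown fat, was at 0 in all 6 muscles. Of the 2 brown fat genes with the smallest p, Dio2 stood at 0.77 and Prdm16 at 1.04 (adjusted p = 0.269 and 0.331 by limma). Of 6 markers of fibro-adipogenic progenitors, the cells from which fat in muscle arises, 3 were above 0 and the median was -0.10. Pi16 and Cd34 stood at -0.47 and -0.35 and were lower in every Dock3 KO muscle than in every WT muscle (adjusted p = 0.296 and 0.434 by limma). Pdgfra and Dlk1, named after their values were seen, stood at 0.15 and 0.91 and were higher in every Dock3 KO muscle (adjusted p = 0.722 and 0.560 by limma). Of all genes tested, 8.65% were lower and 7.6% higher in every Dock3 KO muscle than in every WT muscle. Summed, these progenitor markers ran from 6554 to 8171 normalized counts in WT and from 6141 to 6649 in Dock3 KO.

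The summed 10 fat cell genes of WT replicate 3 reached 10288 normalized counts against 6516 and 7975 in WT replicates 1 and 4, and 8268 to 10315 in Dock3 KO. Most of each sum came from Scd1, Fabp4 and Plin4, which are also active outside fat cells. They held 4592, 2393 and 2086 in WT replicate 3, and 1583, 3379 and 2759 in WT replicate 4. The sum is therefore no measure of fat cells alone. Skin markers were low throughout, at 16.4 to 31.3 in WT and 20.4 to 40.0 in Dock3 KO, with 1 of 5 tested (Krt10 at 0.15, adjusted p = 0.954 by limma). Summed Schwann cell markers were 723.7, 1104 and 853.3 in WT replicates 1, 3 and 4, and 785.9 to 1023 in Dock3 KO, and 4 of those 5 genes were highest of the WT muscles in WT replicate 3. Summed tendon markers were 3484 to 7221 in WT and 5720 to 10865 in Dock3 KO, the last in Dock3 KO replicate 1, and WT replicate 4 was the lowest, as it was for Adipoq. Summed macrophage markers were 5993 to 6660 in WT and 5099 to 5894 in Dock3 KO, and summed red cell markers 28542 to 54916 and 36950 to 97653. Beside the summed fat cell genes, WT replicate 3 was thus the highest WT muscle for skin and Schwann cell markers. It was not the highest for tendon, macrophage or red cell markers. The part of these cells in the fat cell values was not tested.

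By the rule for naming genes, the lowest p values on the other lists given here belonged to Pecam1 and Tek for endothelium (-0.22 and 0.24), Lyz2 and Csf1r for macrophages (-0.38 and -0.38), and Myh2 and Myh1 for muscle fibres (0.55 and 0.47). For tendon they belonged to Mkx and Fmod (0.64 and 0.53), and for red cells to Hbb-bt and Alas2 (0.71 and 0.63). These are log2 differences, Dock3 KO minus WT, with adjusted p values of 0.348 to 0.718 by limma. The list medians were -0.02 for endothelium (2 of 9 genes above 0), -0.24 for macrophages (1 of 8), 0.01 for muscle fibres (5 of 8), 0.23 for tendon (4 of 6) and 0.63 for red cells (5 of 5). Members on the other side of 0 included Acta1 at -0.17 and Mylpf at -0.19 for muscle fibres and Tnmd at -0.72 for tendon, named after their values were seen.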

How the data were processed

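RNA was measured in 6 tibialis anterior muscles, 3 per genotype, grouped by the genotype label. The authors deposited 1 table of normalized counts, called a signal in this work since they are not whole and their sums differ between libraries. The submitters' processing notes name FastQC, Trim Galore 0.4.5, Salmon 0.12.0, DESeq2 1.22.1 and R 3.5.3 with mm10/GRCm38, without stating each tool's role. Only 29.0% to 43.4% of low values were whole multiples of the worth of 1 read (within 0.02 reads), so reads were not recovered, count tests were not run and depths are estimates.

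All 54393 identifiers were found in GENCODE M21. Genes with a mean of at least 10 were tested on log2(normalized count + 1) in R 4.3.3 by limma 3.58.1, using lmFit and eBayes with the prior variance following expression, and p-values were adjusted by Benjamini-Hochberg over 16031 genes. The pseudocount shrinks differences of low genes. Permutation tests were two-sided and exact (Python 3.11.15, scipy 1.17.1, numpy 2.4.6, pandas 2.3.3), and plots used matplotlib 3.10.9. Near-identical copies were searched with blastn 2.17.0 (95% identity over 50% of the shorter transcript and at least 100 bases). Simulated data with known differences served to check the limma script.

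The 10 genes and the 17 other lists (143 genes, 7 of them on more than 1 list) were chosen with earlier results of these data known. Named by rule were the 10 genes, on each other list the genes past the threshold or else the 2 with the smallest p, and the 5 genes outside the lists most like the mean profile of the 10. Some genes that the rule names are not reported here. Alternatives covered pseudocounts, filters, scalings, variance priors, a covariate, a replicate block, protein-coding genes alone and single muscles left out.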

Additional observations from a re-analysis of the deposited data

How the results depend on the processing

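Replicate numbers 1 and 3 occur in both genotypes, but same-numbered muscles did not deviate together (r = 0.0649 and 0.00663), so the numbers were not taken as pairing. With the replicate block, 127 genes in all passed the threshold against 165 without it and none of the 10 fat cell genes did. Under the block the log2 differences of Adipoq, Plin1, Cidec and Fabp4 changed sign, to -0.57, -0.028, -0.17 and 0.23. These block estimates rest on replicates 1 and 3 alone. WT replicate 4 and Dock3 KO replicate 2 have no same-numbered muscle in the other genotype and do not enter them. Rescaling to the same total gave -0.085 for Adipoq and -0.022 for Plin4, and 0.086 and 0.151 with Gm42418 and Lars2 left out of the total. With log2 Gm42418 as a covariate, Adipoq stood at -1.31 and Cidec at -0.41, and without Dock3 KO replicates 1 and 2 together, where the lone Dock3 KO muscle is assumed to vary like the WT muscles, at -1.22 and -0.40. Leaving out single muscles, log2 differences ran from -0.43 to 0.89 for Adipoq, -0.10 to 1.28 for Plin1, -0.20 to 1.12 for Cidec, -0.67 to 0.52 for Cfd, -0.28 to 0.21 for Fabp4, 1.52 to 3.33 for Lep, 1.21 to 2.68 for Retn, 0.23 to 1.04 for Scd1, 0.14 to 0.83 for Pparg and 0.11 to 0.39 for Plin4. The median of the 10 genes ran from 0.22 to 0.95, and r with Adipoq from -0.28 to 0.59 for Fabp4 and -0.045 to 0.48 for Pparg. The count of fat cell genes past the threshold was 0 or 1 without a single muscle (1 without WT replicate 3) and 0 in every other setting run. The 165 genes past the threshold became 104 without a variance trend, 104 among protein-coding genes, 57 with the covariate, 56 without Dock3 KO replicates 1 and 2, and 100 to 159 without single muscles. Of the calls, 43.0% were higher in Dock3 KO, against 23.2% after rescaling to the same total, 31.9% after rescaling without Gm42418 and Lars2, 32.7% without the trend, 29.8% with the covariate and 16.1% without Dock3 KO replicates 1 and 2. The 2 relations with Adipoq past the threshold became 0 after rescaling to the same total (adjusted exact p of 0.05 for Cidec and 0.1 for Plin1) and 0 after quantile normalization, where r stayed at 0.951 and 0.954 for Cidec, and 0 to 2 without single muscles. The count was 0 without WT replicate 1, 3 or 4 or Dock3 KO replicate 3, and 2 without Dock3 KO replicate 1 or 2, where Cidec and Cfd passed (adjusted exact p of 0.0375 for Cfd) and Plin1 did not (0.275 and 0.131). With 5 muscles fewer orders can be permuted, which limits the p reached. The cause of the other changes was not tested. EdgeR and DESeq2 were not run, for want of whole reads. Depth limits Lep and Retn most, which held under 10 estimated reads in WT replicates 1 and 4, and no counting interval can be given.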
